A study of Mus musculus with 4 samples.

Results

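The genes described here are 6 inhibitory receptors of T and natural killer (NK) cells and the 2 ligands of PD-1. They were chosen by name and make up 8 of the 32285 genes in both RNA matrices. The receptors are Pdcd1 (PD-1), Tigit, Ctla4, Lag3, Havcr2 (TIM-3) and Cd160, and the ligands are Cd274 (PD-L1) and Pdcd1lg2 (PD-L2). Cells came from chimeric tumours of wild-type B6 hosts carrying Thy1.2, taken on day 30 after the tumour was implanted and sorted as tumour-infiltrating CD4+ T cells. The hosts had been given Thy1.1 Pmel-1 T cells with adjuvant. Pmel-1 cells are CD8 T cells with a transgenic receptor for the melanocyte protein gp100. In the Tc9 group these cells had been polarised as Tc9 cells, which make interleukin 9, and in the Tc1 group as Tc1 cells, which make interferon-gamma. Each group is a pool of 3 mice read as 1 RNA library and 1 T cell receptor library, with no untreated group. The difference between the libraries therefore has no replicate check and no test, and the 95% intervals cover counting error only.

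Inhibitory receptors are put on T cells after antigen recognition and dampen their response, which is why blocking them is used to treat melanoma. PD-1 recruits the phosphatase SHP-2 when it binds PD-L1 or PD-L2, and CTLA-4 competes with CD28 for CD80 and CD86. TIGIT competes with CD226 for PVR and nectin-2, LAG-3 binds MHC class II, TIM-3 binds galectin-9 among others, and CD160 binds HVEM. PD-L1 is induced by interferon-gamma in many cell types, while PD-L2 is found mainly on dendritic cells and macrophages.

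In the GRCm38.p6 annotation Pdcd1 lies on the minus strand at chr1:94038305-94052553, and Cd274 at chr19:29362107-29388095 is followed on the plus strand by Pdcd1lg2 at chr19:29410919-29472927. Pdcd1 and Cd274, a receptor and its ligand, differed between the libraries in opposite directions in Foxp3 cells, and for this their promoters are shown (250 bases before the RefSeq start, 5′ to 3′ on the gene's strand, chr1:94052554-94052803 and chr19:29367188-29367437). The Cd274 window lies inside the gene span given above, so the start it precedes is not the first base of that span. Capitals mark the core motif of NFAT, a factor activated by receptor signalling, searched as GGAAA on both strands.
Pdcd1: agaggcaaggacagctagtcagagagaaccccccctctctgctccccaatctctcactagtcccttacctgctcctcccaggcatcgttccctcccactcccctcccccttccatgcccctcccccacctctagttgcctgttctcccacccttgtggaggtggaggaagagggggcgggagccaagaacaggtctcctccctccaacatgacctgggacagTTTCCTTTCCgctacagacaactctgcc
Cd274: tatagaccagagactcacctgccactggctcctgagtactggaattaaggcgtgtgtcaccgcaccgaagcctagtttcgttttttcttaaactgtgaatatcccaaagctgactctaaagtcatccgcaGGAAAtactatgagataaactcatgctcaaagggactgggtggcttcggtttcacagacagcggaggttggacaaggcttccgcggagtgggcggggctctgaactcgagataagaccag
The Pdcd1 window held 2 adjoining matches, 28 and 23 bases before the start. The Cd274 window held 1, 120 bases before the start that this window precedes. Such a match is common, since 55.6% of 32851 mouse promoter windows hold at least 1. Neither window held the motif TTCNNNGAA of the interferon-gamma activated site, which 7.02% of windows hold. The motif matches are a description of letters, and no binding was measured.

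The Tc9 library held 8449 barcodes with 50713493 unique molecular identifiers (UMIs) and the Tc1 library 13406 barcodes with 106053410, and 8204 and 11933 barcodes were kept. The sort label and the content differed: CD4 T cells were 86.4% of the kept Tc9 barcodes and 22.5% of the Tc1 barcodes, the rest of Tc1 being mostly CD8 T cells and myeloid cells. CD4 T cells were split into Foxp3 CD4 cells (at least 1 Foxp3 UMI, 1146 in Tc9 and 272 in Tc1) and other CD4 cells (5939 and 2416). The other CD4 cells sat in different clusters in the 2 libraries: 50.9% in cluster 5 and 34.8% in cluster 0 in Tc9, and 52.8% in cluster 3 and 23.3% in the Lef1-led clusters 20.x in Tc1. Cluster 0 was led by type 2 cytokine genes with Il1rl1 and Gata3, cluster 5 by Trat1, S1pr1 and Cd40lg, cluster 3 by Hbb-bs and Cxcr6, and 20.x by Lef1, while cluster 4 was Treg-like. Macrophage transcripts moved with the libraries: all 10 macrophage markers were detected in both, none at 0, at a summed 25.0 CPM (counts per mega-UMI, the UMIs of a gene over all UMIs of the class) in Tc9 and 529 CPM in Tc1 other CD4 cells, and at 20.8 and 272 CPM in Foxp3 CD4 cells. The 7 melanoma markers summed to 4.05 CPM in Tc9 (5 detected, Tyr and Sox10 at 0) and 185 CPM in Tc1 other CD4 cells (all 7 detected). Their part in the values below was not tested. Log2 ratios without cells holding macrophage UMIs are given where they left the counting interval, and no cells were removed for melanoma UMIs. For this filter only Lyz2, C1qa, C1qb, C1qc and Apoe were used, and it took unlike shares of the libraries. Such a UMI was found in 4.73% of Tc9 and 65.7% of Tc1 other CD4 cells, and in 5.50% and 70.2% of Foxp3 CD4 cells. Most Tc1 cells were thus left out of the filtered values. The RNA libraries shared 148 barcode sequences, 127 of them among kept barcodes.

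Pdcd1, the PD-1 gene, was lower in the Tc9 library in every T cell class with at least 47 cells in both. In other CD4 cells it stood at 24.8 CPM in Tc9 (95% interval 23.1 to 26.6) and 81.3 CPM in Tc1 (75.4 to 87.6), a log2 ratio of -1.71 (-1.86 to -1.56). The intervals did not overlap. In Foxp3 CD4 cells it stood at 34.4 CPM in Tc9 and 111 CPM in Tc1, a log2 ratio of -1.68 (-1.94 to -1.43). The share of Foxp3 CD4 cells with a Pdcd1 UMI, each cell thinned to 2000 UMIs, was 5.6% in Tc9 (62 of 1107 cells) and 15.8% in Tc1 (41 of 259), and without thinning it was 16.1% in Tc9 and 36.0% in Tc1. The median depths before thinning were 5775 UMIs in Tc9 and 5311 in Tc1 for Foxp3 CD4 cells, and 4972 and 3098 for other CD4 cells. As a background, 1 of 76 fibroblast-like cells in Tc9 (1.32%; median 7074 UMIs), and 1 of 63 (1.59%; 12607.5 UMIs) and 0 of 282 melanoma-like cells (12896 UMIs) in Tc1 had a Pdcd1 UMI.

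The Pdcd1 difference was present inside each of the 4 CD4 clusters with at least 86 cells of each library. It was largest in the type 2 cytokine cluster 0, with 29.9 CPM in Tc9 and 165 CPM in Tc1 (log2 ratio -2.47, -2.87 to -2.04). Cluster 3 had 41.5 CPM in Tc9, from 17 UMIs in 86 cells, and 115 CPM in Tc1. The Treg-like cluster 4 had 36.3 CPM in Tc9 and 112 CPM in Tc1, and cluster 5 had 19.0 CPM in Tc9 and 60.4 CPM in Tc1. Of 7239 genes, 3.90% were at least 1.5-fold lower in Tc9 in all 4 of these clusters, as Pdcd1 was, and 1.34% were higher in all 4. The clusters themselves differed in level within a library: in the Lef1-led CD4 clusters 20.x of Tc1, Pdcd1 stood at 5.08 CPM, from 11 UMIs in 567 cells, and their 21 Tc9 cells had 0 UMIs, which allows up to 24.7 CPM. The size of the difference over all other CD4 cells thus depended on the clusters included, with a log2 ratio of -0.92 without cluster 3 and -2.10 without clusters 20.x.

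**Figure D1:**
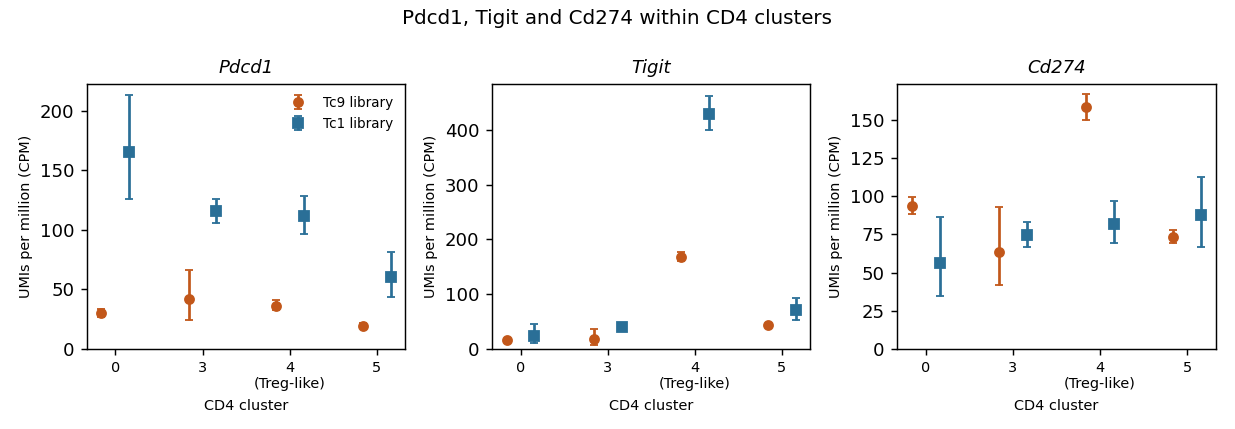
CPM of Pdcd1, Tigit and Cd274 (vertical axes) in CD4 clusters 0, 3, 4 and 5 (horizontal axis), Tc9 as circles and Tc1 as squares, with 95% Poisson intervals of the UMI counts. Pdcd1 lies lower in Tc9 in all 4 clusters (29.9 against 165 CPM in cluster 0), Tigit differs most in the Treg-like cluster 4 (168 against 430 CPM), and Cd274 is higher in Tc9 there (159 against 82.2 CPM).

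In Foxp3 CD4 cells, 5 of the 6 receptors were at least 1.5-fold lower in Tc9 and none was higher, where 23.4% of 8448 genes were lower and 15.8% higher, with a median log2 ratio of -0.08. Tigit had 160 CPM in Tc9 (152 to 169) and 411 CPM in Tc1 (384 to 440), a log2 ratio of -1.36 (-1.49 to -1.24), and a Tigit UMI was found in 25.7% of Tc9 and 44.8% of Tc1 Foxp3 cells. Lag3 had 31.2 CPM in Tc9 and 80.5 CPM in Tc1 (log2 ratio -1.37, -1.65 to -1.08). In Tc1 a few cells carried much of it: the 29 Foxp3 cells of 6 expanded clones had 292 CPM and the 128 single ones 27.6 CPM, against 41.6 CPM in 76 expanded and 22.7 CPM in 338 single Foxp3 cells of Tc9. Havcr2 had 20.05 CPM in Tc9 and 42.7 CPM in Tc1 (log2 ratio -1.09, -1.47 to -0.70). The intervals of all these levels were apart between the libraries. Cd160, counted among the 5, was rare, with 39 UMIs in Tc9 and 30 in Tc1, or 4.74 and 14.5 CPM. Its Tc1 level is within the interval of the Tc1 fibroblast-like cells (9.08 CPM, 4.53 to 16.2), of which 32.4% held a Cd3 UMI. It is above that of Tc1 melanoma-like cells (1.52 CPM, 0.97 to 2.26). In Tc1 it was 39.4 CPM in the 29 expanded and 1.15 CPM in the 128 single cells, against 0 and 1.74 CPM in Tc9. How much of it is background was not tested. Ctla4 was the exception, with 855 CPM in Tc9 and 999 CPM in Tc1 (log2 ratio -0.22) and a UMI in 70.8% of Tc9 and 70.7% of Tc1 Foxp3 cells (difference 0.17 points, -5.97 to 6.69). In fibroblast-like cells a Tigit UMI was found in 0 of 76 Tc9 cells, which allows up to 3.95%, and 1.59% of Tc1 cells, and a Ctla4 UMI in 2.63% of Tc9 and 1.59% of Tc1 cells.

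When CD4 cells were defined by UMIs of Cd3, Cd4 and Cd8 rather than by clusters, the log2 ratio was -0.77 for Tigit, -0.66 for Lag3, -0.19 for Cd160 and 0.24 for Ctla4, which changed sign, in Foxp3 CD4 cells, and 4 of 6 receptors were lower in Tc9. Without cells holding macrophage UMIs it was -2.07 for Lag3 and -0.09 for Ctla4.

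The other CD4 cells showed no such common direction. Here 2 of 6 receptors, Pdcd1 and Cd160, were at least 1.5-fold lower in Tc9 and none was higher. The background was 16.7% lower and 5.15% higher among 8081 genes that reached 10 CPM in a library. Lag3 and Havcr2 were under that level in both libraries but are counted among the 6. Under 5 other settings 1 receptor was at least 1.5-fold higher, which was Ctla4 by the UMI gate, where Havcr2 was at -2.97, and Lag3 without cells holding macrophage UMIs (1.96), with at most 5% mitochondrial UMIs, at resolution 1.5 and with the 8 genes kept in the clustering. Ctla4 had 125 CPM in Tc9 and 119 CPM in Tc1 (log2 ratio 0.07, -0.03 to 0.17), and Tigit 35.1 CPM in Tc9 and 39.8 CPM in Tc1 (-0.18, -0.36 to -0.0031). Cd160 had 1.22 CPM in Tc9 and 10.2 CPM in Tc1, Lag3 4.64 and 3.86 CPM, and Havcr2 2.31 and 3.04 CPM. The Tc1 levels of these 3 genes lay below or within the counting intervals of Tc1 fibroblast-like cells (9.08 CPM for Cd160, 2.48 CPM for Lag3 and 9.08 CPM for Havcr2). In Tc1 melanoma-like cells the levels were lower, at 1.52 CPM for Cd160, 0.76 CPM for Lag3 and 2.40 CPM for Havcr2. The intervals of the log2 ratios of Lag3 (-0.28 to 0.86) and Havcr2 (-1.06 to 0.31) hold 0, so no difference is read from them. For Cd160 the log2 ratio was -3.06 (-3.65 to -2.50), and how much of its level is background was not tested. Scaling by TMM factors shifts all log2 ratios by 0.27 in other CD4 and 0.17 in Foxp3 CD4 cells. Under it Tigit in other CD4 cells turned to 0.09, and Pdcd1 was at -1.44. By the UMI gate Tigit turned to 0.38 and Ctla4 was at 0.73. The other way, without clusters 20.x Tigit was at -0.56 (-0.73 to -0.37) and Ctla4 at -0.12, and without cluster 3 Ctla4 was at -0.36. Without cells holding macrophage UMIs Havcr2 turned to 0.37.

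Ctla4 went in both directions by cluster, since it had 166 CPM in Tc9 and 79.4 CPM in Tc1 in cluster 3 (log2 ratio 1.07), but 90.7 CPM in Tc9 and 170 CPM in Tc1 in cluster 5 (-0.90). Tigit was lower in Tc9 in clusters 3, 4 and 5, at a log2 ratio of -1.20, -1.36 and -0.74, and was between the limits in cluster 0 (-0.55, -1.55 to 0.69).

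**Figure D2:**
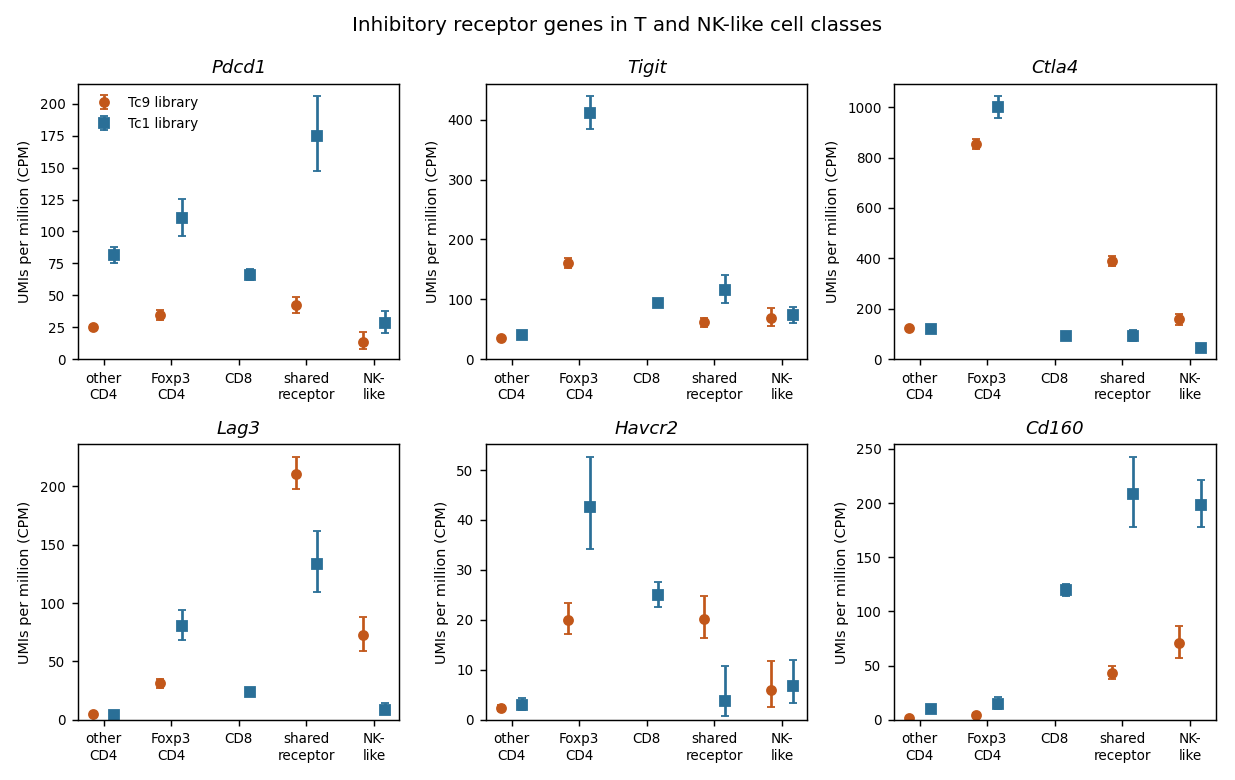
CPM of the 6 inhibitory receptor genes (a panel each, vertical axes from 0) in 5 T and NK-like cell classes, Tc9 as circles left of Tc1 as squares, with 95% Poisson intervals; CD8 cells are drawn for Tc1 alone, since Tc9 held 17. Pdcd1 is lower in Tc9 in each class drawn for both libraries, Ctla4 and Tigit are highest in Foxp3 CD4 cells, Lag3 in shared-receptor cells and Cd160 in NK-like, CD8 and Tc1 shared-receptor cells.

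Foxp3 cells differed from other CD4 cells of the same library most in Ctla4, Tigit, Lag3 and Havcr2. The log2 ratio of Foxp3 over other CD4 cells in Tc9 was 2.78 for Ctla4, 2.19 for Tigit, 2.75 for Lag3 and 3.12 for Havcr2. In Tc1 it was 3.07 for Ctla4, 3.37 for Tigit, 4.38 for Lag3 and 3.81 for Havcr2. A ratio of at least 1.5-fold higher in Foxp3 cells was held by 12.3% of genes in Tc9 and 18.2% in Tc1, and 3.91% in Tc9 and 12.6% in Tc1 were as much lower. These ratios depend on where Treg-like cells without a Foxp3 UMI are counted: inside cluster 4, Foxp3 cells over the 238 Tc9 cells without such a UMI had a log2 ratio of 0.04 for Ctla4, -0.07 for Tigit, 0.74 for Lag3, 0.93 for Havcr2 and -0.59 (-1.01 to -0.15) for Pdcd1. In Tc1, over 54 such cells, it was 0.06 for Ctla4, 0.78 for Tigit, 1.84 for Lag3, 0.79 for Havcr2 and 0.11 for Pdcd1. Against all other CD4 cells, Pdcd1 did not mark Foxp3 cells in the same way, at 0.47 (0.27 to 0.67) in Tc9 and 0.44 (0.22 to 0.66) in Tc1. Cd274 did so in Tc9 (0.79, 0.69 to 0.89), with 148 CPM in Foxp3 and 85.8 CPM in other CD4 cells. In Tc1 it stood at 73.7 CPM in Foxp3 and 69.7 CPM in other CD4 cells (0.08, -0.19 to 0.34). The share of Tc1 cells with a Cd274 UMI after thinning was still higher in Foxp3 cells, by 5.80 points (1.20 to 11.1). Inside cluster 4, Cd274 was not higher in Foxp3 cells than in cells without a Foxp3 UMI. Its log2 ratio there was -0.11 (-0.33 to 0.12) in Tc9 and -0.68 (-1.29 to -0.03) in Tc1. Pdcd1lg2 was at 0.94 in Tc9 and 0.69 in Tc1 against all other CD4 cells, and at -0.07 and -0.42 inside cluster 4.

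A class of its own was made of T cells that carried a T cell receptor beta chain found in both libraries. There were 2 such chains, and the second was on 1 barcode in each library. The main chain joins TRBV14 and TRBJ1-6 and was on 487 barcodes in Tc9 and 59 in Tc1, before the filters. Its CDR3 is shown since it makes up nearly all of the class (45 bases, 5′ to 3′).
Shared CDR3: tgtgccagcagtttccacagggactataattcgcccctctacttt
The labels do not say which cells were transferred, so whether these cells were is not known from the files. The class held 477 cells in Tc9 and 47 in Tc1, with a Cd8 UMI in 61.8% and 93.6% and a Cd4 UMI in 21.2% and 8.51%. It sat in different clusters in the 2 libraries: 210 of its Tc9 and 3 of its Tc1 cells lay in CD4 clusters, and 263 and 28 in clusters where this chain made up most of the beta chains. A Foxp3 UMI was found in 19.7% of its Tc9 and 4.26% of its Tc1 cells.

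In shared-receptor cells the receptors differed in both directions. Pdcd1 had 42.3 CPM in Tc9 and 175 CPM in Tc1 (log2 ratio -2.05, -2.37 to -1.72), Cd160 43.4 CPM in Tc9 and 208 CPM in Tc1 (-2.26), and Tigit 61.4 CPM in Tc9 and 115 CPM in Tc1 (-0.91). Ctla4 had 388 CPM in Tc9 and 90.4 CPM in Tc1 (2.10, 1.76 to 2.46), and Lag3 211 CPM in Tc9 and 134 CPM in Tc1 (0.66, 0.37 to 0.96). Havcr2 had 20.2 CPM in Tc9 from 90 UMIs and 3.72 CPM in Tc1 from 3 UMIs (2.45, 0.85 to 4.75). By CPM 3 of 6 were thus lower and 3 of 6 higher in Tc9, in a class where 29.5% of 8327 genes were lower and 24.4% higher. The count of 3 higher includes Lag3 and Havcr2, for which no order is read. For Lag3, weighted equally per cell its log2 ratio was 0.14, and after thinning a Lag3 UMI was found in 25.5% of Tc9 and 31.9% of Tc1 cells. Havcr2 went the other way in cells without the chain from the clusters where it made up most beta chains, with 17.3 CPM in Tc9 and 26.9 CPM in Tc1 (-0.63, -1.50 to 0.29). Without cells holding a Cd4 or Foxp3 UMI, 324 in Tc9 and 41 in Tc1, the log2 ratio was -1.80 for Pdcd1 and 1.81 for Ctla4. The macrophage markers summed to 38.2 CPM in Tc9 (9 of 10 detected, Fcgr1 at 0) and 171 CPM in Tc1 (8 of 10, Adgre1 and Csf1r at 0). Without cells holding macrophage UMIs the log2 ratio was 1.14 for Ctla4, -1.51 for Tigit and -1.80 for Cd160. This filter left out 9.22% of the Tc9 and 66.0% of the Tc1 cells. The Tc1 side rests on 47 cells with a median of 14981 UMIs, against 7679 in Tc9.

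**Figure D3:**
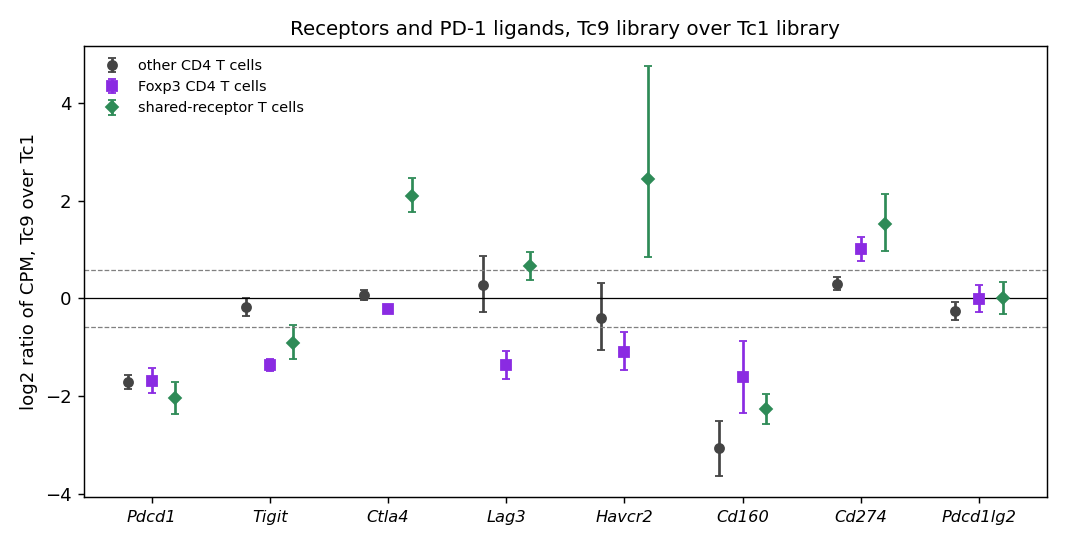
Log2 ratio of CPM, Tc9 over Tc1 (vertical axis), for the 8 genes in other CD4 (circles), Foxp3 CD4 (squares) and shared-receptor cells (diamonds), with exact 95% conditional intervals; dashed lines mark 1.5-fold. Pdcd1 lies near -2 in all 3 classes (-1.71, -1.68 and -2.05), while Ctla4 is apart from 0 by more than 1.5-fold in shared-receptor cells alone (2.10).

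CD8 T cells outside the shared receptor were 2046 in Tc1 and 17 in Tc9, so the libraries were not compared in them. In Tc1 their levels were 120 CPM for Cd160, 94.5 CPM for Tigit, 89.8 CPM for Ctla4, 66.0 CPM for Pdcd1, 25.0 CPM for Havcr2 and 24.0 CPM for Lag3. Cd160, known from CD8 T and NK cells, was at 10.2 CPM in other CD4 cells of the same library. NK-like cells had Cd160 at 70.9 CPM in Tc9 and 199 CPM in Tc1 (log2 ratio -1.49, -1.83 to -1.15) and Tigit at 69.4 CPM in Tc9 and 72.9 CPM in Tc1. Their Pdcd1 was 13.4 CPM in Tc9 and 27.9 CPM in Tc1. Lag3 was 72.4 CPM in Tc9 and 8.5 CPM in Tc1, and Ctla4 157 CPM in Tc9 and 45.6 CPM in Tc1. Background shares in NK-like cells were 15.9% lower and 15.5% higher in Tc9. The NK-like cluster was mixed, with a Cd3 UMI in 56.2% of its Tc9 and 87.9% of its Tc1 cells, and other cluster settings or filters changed its values. The Lag3 log2 ratio of 3.09 was 0.44 with at least 1000 genes per barcode and 1.36 at resolution 0.6, and that of Cd160 was -0.66 at resolution 0.6.

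UMIs of several receptors in 1 cell were more frequent in Foxp3 CD4 and shared-receptor cells than in other CD4 cells. After thinning, at least 1 of the 6 receptors was found in 79.3% of Tc9 and 84.6% of Tc1 Foxp3 CD4 cells, at least 2 in 26.2% and 47.1%, and at least 3 in 4.61% and 15.1%. The difference for at least 2 was -20.9 points (-27.7 to -14.1), and it was -11.9 points (-24.0 to -0.78) among cells without macrophage UMIs and -13.3 points when thinned to 1000 UMIs. In other CD4 cells at least 2 were found in 3.49% of Tc9 and 5.52% of Tc1 cells, a difference of -2.03 points that became 0.363 without thinning and -0.64 among cells without macrophage UMIs. CD8 cells of Tc1 had at least 2 in 10.9% and at least 3 in 2.55%. Shared-receptor cells had at least 2 in 23.4% in Tc9 and 40.4% in Tc1, where the interval was 26.4 to 55.7%, and the difference changed sign with at least 1000 genes per barcode (3.37 points) and when thinned to 1000 UMIs (1.13 points). In melanoma-like cells of Tc1, at least 1 receptor was found in 2.48% and at least 2 in 0.355% of 282 cells.

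**Figure D4:**
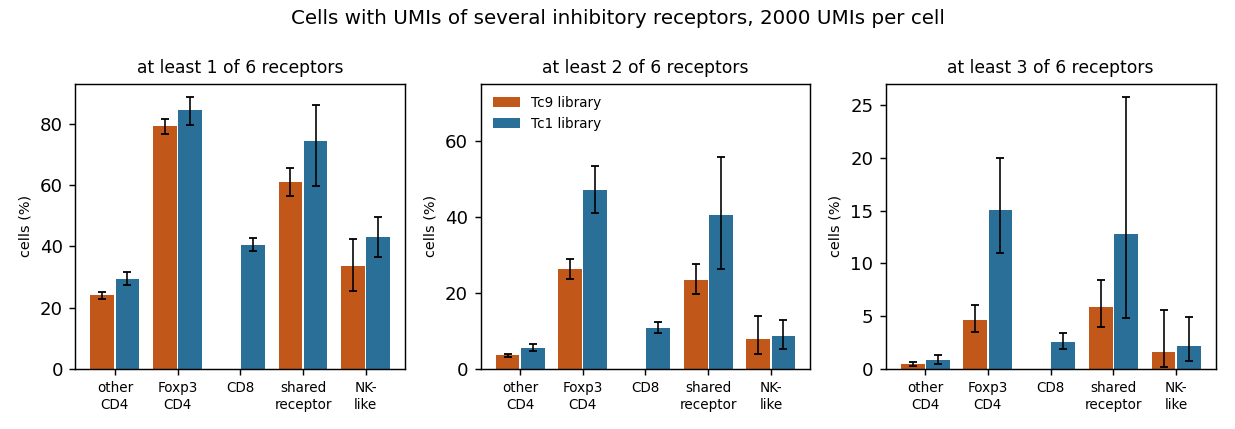
Percent of cells (vertical axes from 0) with UMIs of at least 1, 2 or 3 of the 6 receptors, each cell thinned to 2000 UMIs, by class, Tc9 bars left of Tc1 bars, with exact 95% binomial intervals; CD8 cells are drawn for Tc1 alone. In Foxp3 CD4 cells the bars for at least 1 receptor are close (79.3 and 84.6%) and those for at least 2 are apart (26.2 and 47.1%).

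Co-detection was set against the count of cells expected if both genes of a pair were spread independently. The classes pool clusters that differ in level, and pairs were not split by cluster. Among other CD4 cells of Tc9, those of the Treg-like cluster 4 had Ctla4 in 67.8% and Tigit in 26.1% after thinning. Among CD8 cells of Tc1, at least 2 receptors were found in 4.81% in clusters 20.x and 13.2% elsewhere. Among CD8 cells of Tc1, 12 of 15 pairs had at least 5 expected cells, and their median ratio of observed to expected was 2.01. Pdcd1 with Ctla4 was found in 36 cells where 15.3 were expected (ratio 2.35, 1.65 to 3.26), and Pdcd1 with Tigit in 41 where 19.6 were expected (2.09). The 5 pairs with Cd160 stayed between 0.71 and 1.29, and the other 7 lay between 1.93 and 3.38. In other CD4 cells Tigit with Ctla4 was found at 1.93 times the expected count in Tc9 (1.58 to 2.34) and 2.20 times in Tc1 (1.56 to 3.03). Pdcd1 with Tigit was at 1.93 in Tc9 and 1.79 in Tc1, so that these pairs had like ratios although Pdcd1 itself differed. In Foxp3 cells the median over 7 pairs was 1.13 in Tc9 and 1.10 in Tc1, and the highest in Tc9 was Lag3 with Tigit at 1.99 (1.26 to 2.98). Pdcd1 and its ligand Cd274 were found together at 0.95 times the expected count in Tc9 and 1.15 times in Tc1 other CD4 cells, both with intervals that hold 1.

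Pdcd1 and Ctla4 were more frequent in CD4 cells with a UMI of Tnfrsf9, the activation receptor 4-1BB. Pdcd1 was in 10.5% of Tnfrsf9-positive and 4.23% of other cells in Tc9, and in 36.4% and 10.2% in Tc1, all among other CD4 cells after thinning. Ctla4 was in 38.8% and 14.9% in Tc9, and in 28.8% and 12.8% in Tc1. In Tc1 other CD4 cells, Pdcd1 was less frequent where Tcf7, a gene of naive and memory cells, had a UMI (8.69%) than where it had none (16.3%; difference -7.57 points, -10.4 to -4.62). In Tc9 it was in 3.95% with and 4.85% without Tcf7, a difference whose interval holds 0 (-2.01 to 0.26). The Lef1-led clusters 20.x made up 23.3% of Tc1 and 0.34% of Tc9 other CD4 cells. Pdcd1 was in 0.58% of the thinned CD4 cells of these clusters in Tc1, and their part in the Tcf7 difference was not tested. With Tox, a factor of chronic stimulation, Pdcd1 was in 6.01% and without it in 3.89% of Tc9 cells, and in 14.5% and 12.9% of Tc1 cells, where the interval of the difference holds 0. In CD8 cells of Tc1, Tox-positive cells had Pdcd1 in 14.3% against 5.59%, Havcr2 in 8.35% against 1.61% and Tigit in 23.6% against 10.9%, while Cd160 was in 13.3% against 18.1%. Lag3 in Tc9 shared-receptor cells was in 38.5% of Tnfrsf9-positive and 17.9% of other cells, and in 46.2% of Ifng-positive and 22.9% of other cells.

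The Pdcd1 level was higher in expanded clones in both libraries. Among other CD4 cells, those of clones with at least 3 cells had 26.2 CPM and single cells 17 CPM in Tc9 (log2 ratio 0.62, 0.14 to 1.14), and 112 CPM and 33.3 CPM in Tc1 (1.76, 1.39 to 2.14). The share with a Pdcd1 UMI was 4.72% in expanded and 3.37% in single cells of Tc9, where the interval of the difference holds 0 (-1.12 to 3.18), and 18.1% and 5.3% in Tc1. Ctla4 went the other way, with 97.6 CPM in expanded and 253 CPM in single cells in Tc9 (-1.37), and 69.7 CPM and 133 CPM in Tc1 (-0.93). Tigit was 30.5 CPM in expanded and 53.2 CPM in single cells in Tc9 (-0.80) and showed no difference beyond its interval in Tc1 (0.15, -0.31 to 0.61). Expanded cells of 1 clone are not independent, and the groups held 169 clones in Tc9 and 55 in Tc1. Both groups pool clusters that differ in these genes. Pdcd1 stood at 5.08 CPM in the Tc1 CD4 clusters 20.x, and Ctla4 at 882 CPM in Tc9 cluster 4 cells without a Foxp3 UMI. The part of cluster make-up in the differences between expanded and single cells was not tested. In CD8 cells of Tc1, with 38 expanded clones, Havcr2 was at 37.5 CPM in expanded and 4.84 CPM in single cells (2.96), Tigit at 118 and 39.3 CPM (1.58), Pdcd1 at 75.1 and 27.8 CPM (1.43) and Cd160 at 157 and 59.2 CPM (1.40). Cd274 was lower there in expanded cells, at 32.6 and 45.9 CPM (-0.49).

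The PD-1 ligands were highest in mature dendritic-like cells, which carry Ccr7 and Fscn1. Cd274 had 315 CPM there in Tc9 (24 cells) and 477 CPM in Tc1 (76 cells). A Cd3 UMI was found in 37.5% of these cells in Tc9 and 57.9% in Tc1, and with the UMI gate the Tc1 levels were 742 CPM for Cd274 and 187 CPM for Pdcd1lg2. Next in Tc1 came cluster 15, led by Mmp12, Spp1 and Nos2, with 261 CPM (249 to 273). Neutrophil-like cells had 239 CPM, with an overlapping interval (194 to 293). Their level was 193 CPM with at least 1000 genes per barcode and 317 CPM with the UMI gate. The neutrophil-like cluster also met 5 mast or basophil markers. Monocyte-like cells had 154 CPM, cDC2-like cells 117 CPM, macrophage-like cells 85.3 CPM, CD8 cells 38.7 CPM and melanoma-like cells 17.8 CPM (15.8 to 20.1), the last at the level of the Tc1 fibroblast-like cells (23.9 CPM, 16 to 34.4). Tc9 held under 20 cells of each of the macrophage-like, monocyte-like, neutrophil-like and melanoma-like classes, so its myeloid and tumour ligand levels were not compared.

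In Foxp3 CD4 cells Cd274 was higher in Tc9, with 148 CPM in Tc9 (140 to 157) and 73.7 CPM in Tc1 (62.4 to 86.4), a log2 ratio of 1.01 (0.76 to 1.26). The share with a UMI was 26.1% in Tc9 and 17% in Tc1 after thinning, and 50.1% in Tc9 and 36.0% in Tc1 without. Among Foxp3 cells without macrophage UMIs the ratio was 0.45 and by the UMI gate 0.43, both short of 1.5-fold. In other CD4 cells Cd274 had 85.8 CPM in Tc9 and 69.7 CPM in Tc1 (0.30), with a sign that turned under the UMI gate (-0.34), and 0.15 without macrophage UMIs. In shared-receptor cells it had 100 CPM in Tc9 and 34.7 CPM in Tc1 (1.53, 0.98 to 2.14; 2.18 without macrophage UMIs).

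Pdcd1lg2 followed another order of classes. It was highest in mature dendritic-like cells, with 211 CPM in Tc9 (152 to 287) and 121 CPM in Tc1 (101 to 143), the Tc1 interval overlapping that of shared-receptor cells. Shared-receptor cells had 114 CPM in both libraries (log2 ratio -0.0021, -0.33 to 0.33), and Foxp3 CD4 cells 63.1 CPM in Tc9 and 63.5 CPM in Tc1 (-0.01, -0.29 to 0.28). Without cells holding macrophage UMIs the shared-receptor ratio was 1.03. Other CD4 cells had 33.0 CPM in Tc9 and 39.4 CPM in Tc1 (-0.26), with a sign that turned without cluster 3 (0.47). Without clusters 20.x the ratio was -0.59. In Tc1 the T cell classes were above macrophage-like (7.39 CPM) and melanoma-like cells (1.20 CPM). Neutrophil-like cells, whose cluster also met mast or basophil markers, had 90.7 CPM (63.5 to 126), from 36 UMIs in 95 cells. Their level was 127 CPM with at least 1000 genes per barcode. CD8 cells (22.03 CPM, 19.8 to 24.5) overlapped cDC2-like (20.9 CPM) and monocyte-like cells (19.1 CPM). In cDC2-like cells the ligands differed in opposite directions: Cd274 had 55.3 CPM in Tc9 and 117 CPM in Tc1 (-1.08, -1.60 to -0.60), and Pdcd1lg2 64.8 CPM in Tc9 and 20.9 CPM in Tc1 (1.63, 1.13 to 2.10). In that class 18.6% of 8532 genes were lower and 31.2% higher in Tc9. It held 76 cells in Tc9 and 1652 in Tc1, 380 of these with a T cell receptor beta chain, and a Cd3 UMI was found in 53.9% of its Tc9 and 50.2% of its Tc1 cells. A macrophage UMI was found in 60.5% of its Tc9 and 98.5% of its Tc1 cells, with 5 such markers at a summed 740 CPM in Tc9 and 7686 CPM in Tc1, and its cluster also met 7 monocyte and 3 macrophage markers. With the UMI gate Pdcd1lg2 in the Tc1 class was 35.8 CPM.

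**Figure D5:**
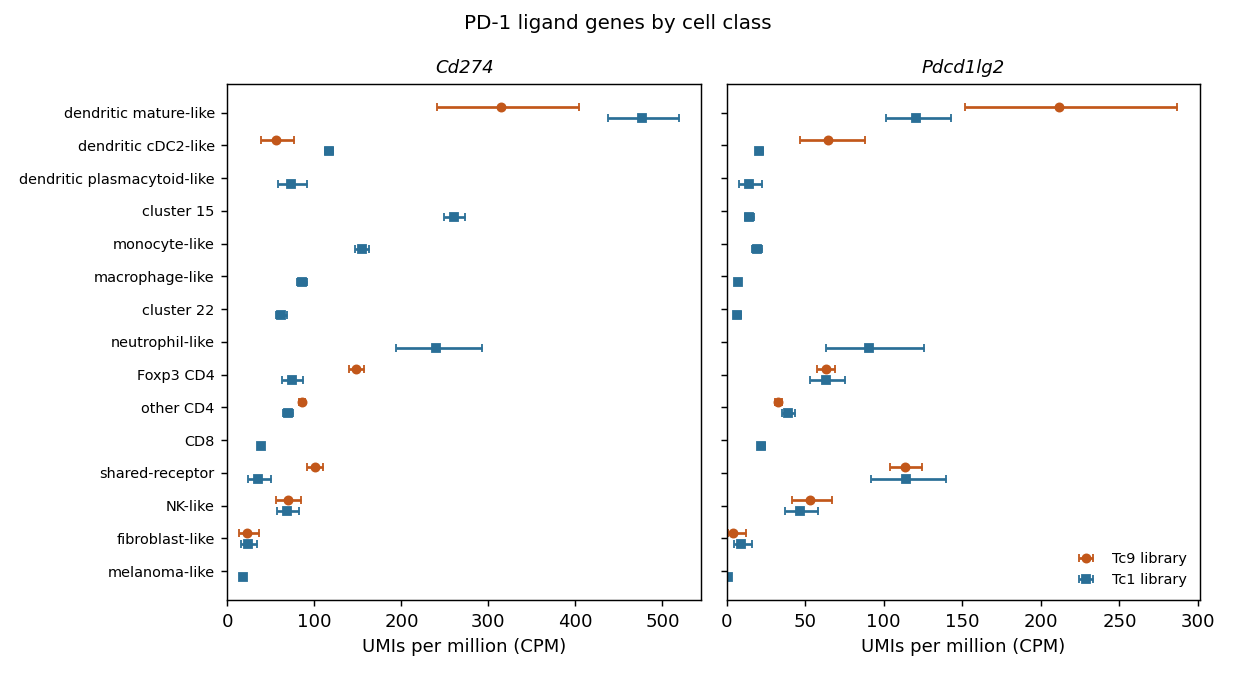
CPM of Cd274 (left) and Pdcd1lg2 (right) on horizontal axes from 0 in 15 cell classes with at least 20 cells in a library, Tc9 circles above Tc1 squares, with 95% Poisson intervals. Both genes are highest in mature dendritic-like cells (Cd274 315 CPM in Tc9 and 477 CPM in Tc1). Pdcd1lg2 in Tc1 is 90.7 CPM in neutrophil-like, 22.03 CPM in CD8 and 7.39 CPM in macrophage-like cells. The neutrophil-like cluster also met 5 mast or basophil markers.

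Other myeloid classes carried receptor genes as well. Havcr2, which is also known from myeloid cells, had 86.2 CPM in monocyte-like cells of Tc1, and 67.9 CPM in Tc9 and 50.1 CPM in Tc1 in cDC2-like cells, against 25.0 CPM in Tc1 CD8 cells. Lag3, known from plasmacytoid dendritic cells, had 139 CPM in the plasmacytoid-like cells of Tc1 (115 cells).

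Over 25 points of a class in a library with at least 50 cells, the gene most like each member was sought by Pearson's r of log2(CPM + 10) among 7386 genes. The points share libraries and free RNA, so the r is a description. Ctla4 was most like Tnfrsf4 (0.96), Izumo1r (0.95) and Tnfrsf18 (0.93), all on the Treg marker list used for naming. Tigit was most like Cd27 (0.93), Gstp3 (0.92) and Ptprcap (0.92), and Cd160 most like Prf1 (0.88), Xcl1 (0.88) and Samd3 (0.86). Pdcd1 was most like Gm7030, Cd3g and Zgpat (each 0.88). Lag3 was most like Ramp1 (0.86), Pacsin1 (0.86) and Lta (0.82), Havcr2 with Edem1 (0.85), Gm2a (0.81) and Irf5 (0.79), Cd274 with Gadd45b (0.86), Pfkfb3 (0.84) and Traf6 (0.84), and Pdcd1lg2 with Samsn1 (0.90), Traf1 (0.86) and Stat3 (0.85).

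Lists of partner genes were counted in all CD4 T cells, where 17% of 8156 genes were at least 1.5-fold lower and 5.84% higher in Tc9, with a median log2 ratio of -0.14, which TMM factors raise by 0.26. Of 14 other ligands of the receptors, 9 were measured and 6 were lower and 0 higher in Tc9 (median -0.86). H2-Aa, H2-Eb1 and H2-Ab1, the MHC class II genes that myeloid cells express, led these, with H2-Aa at 7.74 CPM in Tc9 and 97.4 CPM in Tc1, along with the macrophage transcripts above, and Lgals3 had 159 CPM in Tc9 and 292 CPM in Tc1. Of 18 transcription factors listed for chronic stimulation, 16 were measured, with 7 higher and 2 lower in Tc9 (median 0.50). This list also holds Tcf7 and Bach2, genes of naive and memory cells, and Bach2 (log2 ratio -1.23) is 1 of the 2 lower, so the counts mix unlike factors. Nr4a1 and Nr4a3, induced by receptor signalling, had 463 and 220 CPM in Tc9 and 155 and 90.0 CPM in Tc1, and Maf 182 CPM in Tc9 and 100 CPM in Tc1, so that these were higher in the library where Pdcd1 was lower. Bach2, a factor of naive and memory cells, had 152 CPM in Tc9 and 356 CPM in Tc1.

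Of 15 receptors of the same families, 13 were measured, with 1 higher and 4 lower (median -0.15). Icos, a costimulatory receptor, had 442 CPM in Tc9 and 155 CPM in Tc1 (log2 ratio 1.51), while Pvrig had 3 CPM in Tc9 and 11.7 CPM in Tc1 (-1.96), Klrg1 41.9 CPM in Tc9 and 104 CPM in Tc1 (-1.32) and Tnfrsf18 194 CPM in Tc9 and 354 CPM in Tc1 (-0.87). All 14 genes of signalling below PD-1 and the T cell receptor were between the limits (median 0.04), the farthest being Inpp5d (0.51), Ptpn22 (0.50), Ubash3a (0.37) and Cblb (-0.33), of which the first 3 pass 1.5-fold with the TMM shift added. Of 12 genes on the path from interferon-gamma to PD-L1, 11 were measured, with 1 higher and 2 lower (median -0.27). Jak2, the receptor's kinase, had 310 CPM in Tc9 and 137 CPM in Tc1 (1.18), Ifngr2 was at -0.88, and Socs1, an inhibitor of the path, had 78.3 CPM in Tc9 and 119 CPM in Tc1 (-0.61), with Irf9 at -0.49.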

How the data were processed

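Per the submitters' processing notes, Cell Ranger 7.0.0 and the build mm10 (GRCm38) were used on these 10x 5′ v2 libraries. The deposited values are UMI counts per gene and barcode, in filtered matrices, and receptor contigs with counts of UMIs and reads.

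Barcodes needed 500 genes or more and no more than 10% mitochondrial UMIs; 8204 of 8449 in Tc9 and 11933 of 13406 in Tc1 passed. Clustering used scanpy 1.11.5 with 2000 variable genes (the 8 members left out), 30 components, 15 neighbours and Leiden at resolution 1. T cell clusters had a Cd3 UMI in at least 60% of cells. Classes were named only from fixed marker lists, when 3 or more of a list were found in 10% or more of a cluster's barcodes at 2-fold the level elsewhere, and these names are rebuilt here. No doublet caller was run. Barcodes with 2 beta chains were left out in an alternative.

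Counts were summed per class and library and divided by the class total (CPM) with exact Poisson intervals. Log2 ratios, Tc9 over Tc1, have exact conditional intervals, which take UMIs of a cell as independent. A gene was counted higher or lower at 1.5-fold. Background and list genes had to reach 10 CPM on either side, while the 6 receptors were counted at any level. Shares used cells thinned to 2000 UMIs, with Clopper-Pearson intervals, and differences of shares used Newcombe's method. In other CD4 cells 388 Tc9 and 369 Tc1 cells were shallower and left out of shares. A count of 0 was limited by 3 counts. A clonotype was a productive beta chain, expanded at 3 cells.

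The text names the 8 members, the 3 genes most like each, and up to 4 genes per list with the largest ratio. The members and lists were chosen with earlier results of these data known. Sequences are from RefSeq (GRCm38.p6), and those of 7 members were in the table.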

Additional observations from a re-analysis of the deposited data

How the results depend on the processing

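Of 1039 values recomputed under 19 alternative settings, 865 stayed within the counting interval of the main value (counts within 1.5 times). Another 169 were counted as moved outside it and 5 as reversed, the latter all differences of shares. Log2 ratios short of 1.5-fold that changed sign were counted among the 169. In other CD4 cells by the UMI gate, Cd274 went from 0.30 to -0.34 and Tigit from -0.18 to 0.38. The log2 ratio of Pdcd1 in other CD4 cells, -1.71, was -1.18 with a UMI gate, -1.44 with TMM factors and -1.50 with the median ratio of genes. Added after seeing the data, it was -2.10 without the Lef1-led clusters 20.x and -0.92 without cluster 3. In Foxp3 CD4 cells it was -1.33 with the UMI gate. The difference in cells with at least 2 receptors, Tc9 minus Tc1, was -0.64 points in other CD4 and -11.9 in Foxp3 CD4 cells without macrophage UMIs, and -0.83 and -13.3 when thinned to 1000 UMIs. In other CD4 cells it was -3.84 without 20.x, -0.83 without cluster 3 and turned to 0.363 without thinning. In shared-receptor cells it turned to 3.37 with at least 1000 genes and 1.13 at 1000 UMIs. The share with Pdcd1lg2 in other CD4 cells turned to 3.29 points without thinning and 2.04 without cluster 3. The cause of these changes was not tested. No paired analysis was possible because each group is 1 library and no test was made. The number of cells limits the Tc1 shared-receptor class (47 cells), the Tc9 side of cluster 3 (86 cells), and depth limits genes with few UMIs such as Cd160 in CD4 cells.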
